A study of Mus musculus with 10 samples.

Results

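The inguinal fat pad of a female mouse houses a mammary gland, and the genes described here are those that mark its epithelium and its milk. They comprise 33 listed genes: keratins of the luminal and basal layers, adhesion and junction genes, regulators of epithelial identity, protease inhibitors, milk and secreted proteins, a growth factor and a hormone receptor. Of these, 30 were measured, among 19659 genes in all. Areg, a ligand of the epidermal growth factor receptor, and Prlr, the prolactin receptor, were named by no probe set of the probe table, and the probe set of Lalba, the milk protein that takes part in lactose synthesis, names a second gene, Trip12, so these 3 are not analysed here. Each gene was represented by the probe set that named it alone and had a value on all 10 arrays, and by the one with the highest mean where there were several.

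The samples were inguinal-femoral subcutaneous white fat from 10 untreated female F2 mice, fed chow and sampled at 14 weeks of age. They differed by genotype at the Fob3a obesity locus, which lies on chromosome 15: 5 FF mice were homozygous for the Fat-line allele and 5 VV mice were homozygous for the allele of the V congenic line, which the sample source text calls a Lean-line allele. The labels describe the V line as founded by a recombinant in the locus and backcrossed repeatedly to the Fat line, with other obesity loci bred out, so that Fat-line background is shared and the chromosome beside the locus can differ with the genotype. Each array came from a separately numbered animal. No pregnancy, lactation or oestrous stage is given in the sources used here. Values are normalised intensities on the log2 scale, where 1 unit is a doubling, and differences are FF minus VV.

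Mammary ducts are built of an inner luminal layer, which carries the keratins of simple epithelia and the hormone receptors, and an outer basal layer of contractile cells, which carries other keratins and p63. Milk proteins are made by luminal alveolar cells when prolactin, acting through Jak2 and Stat5, switches on casein genes in pregnancy and lactation, so they are low in the resting gland of a virgin animal. Several of these genes are also used outside the gland: the luminal keratins are shared by mesothelium, bile ducts and other simple epithelia, and Glycam1 is made by the vessels through which lymphocytes enter lymph nodes. Bulk tissue was measured, so fewer cells of a type and less RNA per cell cannot be told apart.

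No measured gene of the gland passed the test between genotypes. At an adjusted p below 0.05, from limma with Benjamini-Hochberg adjustment over all genes, 0 of 30 were called, beside 0.753% of all genes, and the lowest adjusted p among the 30 was 0.209. At an unadjusted p below 0.05 there were 2 of 30, beside 16.4% of all genes: Csn1s1 lay higher in FF, as did 10.2% of all genes, and Trps1 lay lower, as did 6.18%. For 0 of 30 were all FF mice on one side of all VV mice, which held for 4.70% of all genes. The differences ran from -0.48 to 0.11, 12 higher and 18 lower in FF, with a median of -0.03 against 0.00 over all genes. Deptor, the gene named in the series title, lay higher in every FF mouse than in any VV mouse, by 0.55 ± 0.06 (SE, 5 mice a group; limma, adjusted p = 0.00553). The number of arrays limits the precision, and the intervals below show what size of difference each gene leaves possible.

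**Figure D1:**
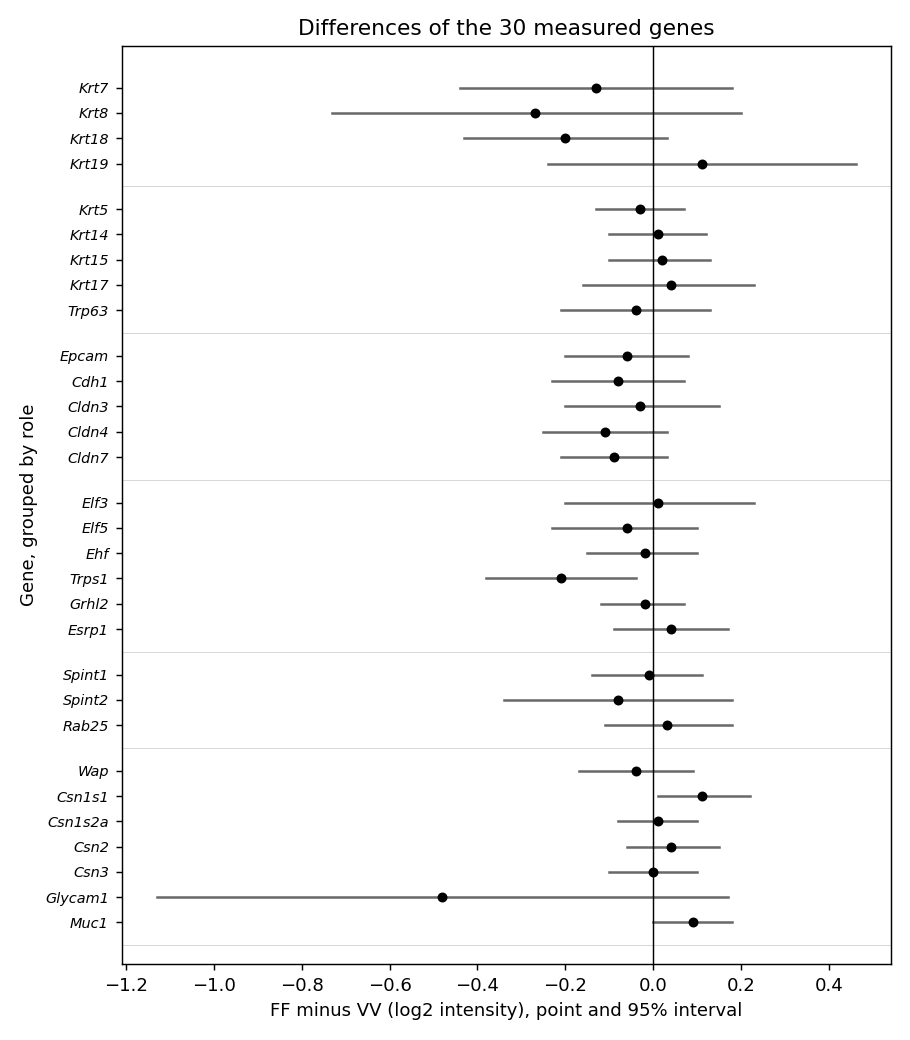
Difference in log2 intensity between FF and VV for each of the 30 measured genes, grouped by role, with points for the limma estimate and lines for its 95% interval (5 mice a group). The widest interval is that of Glycam1, from -1.13 to 0.17, and the intervals of Trps1 and Csn1s1 lie on 1 side of 0 before adjustment.

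Krt7, Krt8, Krt18 and Krt19, the keratins of luminal cells, had the highest median SD over the 10 mice among the roles of the 30 genes (0.26). Their SDs were 0.20 to 0.39, at the 85.5 to 96.7 percentile of all genes, where the SDs of the 30 genes had a median of 0.10. The RefSeq promoter windows of Krt7, Krt8 and Krt18 are shown because these keratins in part moved together; each runs from 250 bases before the start to 50 after it on GRCm38.p6, printed 5′ to 3′ on the gene's own strand. Capitals mark the TATA box letters TATAAA, the GC box letters GGGCGG, the AP-1 letters TGANTCA and the STAT letters TTCNNNGAA, searched on both strands.
Krt7, chr15:101412153-101412452, plus strand: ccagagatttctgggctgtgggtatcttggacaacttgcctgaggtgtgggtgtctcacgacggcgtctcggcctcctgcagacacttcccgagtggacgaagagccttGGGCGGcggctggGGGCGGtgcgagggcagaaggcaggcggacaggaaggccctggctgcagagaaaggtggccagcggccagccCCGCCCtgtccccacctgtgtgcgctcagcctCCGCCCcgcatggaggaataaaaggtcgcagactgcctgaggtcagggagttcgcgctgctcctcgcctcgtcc
Krt8, chr15:102004293-102004592, minus strand: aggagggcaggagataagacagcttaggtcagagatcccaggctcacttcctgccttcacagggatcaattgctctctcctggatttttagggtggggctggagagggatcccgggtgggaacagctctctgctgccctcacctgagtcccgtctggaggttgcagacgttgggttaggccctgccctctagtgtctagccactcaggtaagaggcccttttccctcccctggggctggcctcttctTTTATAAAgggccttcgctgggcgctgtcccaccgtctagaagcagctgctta
Krt18, chr15:102027966-102028265, plus strand: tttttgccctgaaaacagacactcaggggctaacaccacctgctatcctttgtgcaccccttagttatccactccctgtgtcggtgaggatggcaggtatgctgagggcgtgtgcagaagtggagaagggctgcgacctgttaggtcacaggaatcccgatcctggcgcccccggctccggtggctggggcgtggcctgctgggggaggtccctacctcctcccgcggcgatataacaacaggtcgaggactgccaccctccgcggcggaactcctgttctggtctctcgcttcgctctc
Krt7 holds 4 GC boxes, Krt8 holds TATAAA on both strands in an overlapping stretch, and Krt18 holds none of the 4 motifs. Over 32851 promoters in the table, 13.6% hold the TATA letters, 35.7% the GC box, 7.81% the AP-1 letters and 8.3% the STAT letters, so these 3 windows share no motif of those searched. A promoter window was held for 20 of the 30 genes, and Krt19 was not among them.

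Krt8, the luminal type II keratin that pairs with Krt18, was 9.25, 9.33, 9.31, 9.96 and 8.80 in FF replicates 1 to 5 and 9.87, 9.81, 9.13, 9.29 and 9.87 in VV replicates 1 to 5. The genotypes overlapped: FF replicate 4 was the highest mouse and FF replicate 5 the lowest. The difference was -0.27 ± 0.21 (SE; 95% interval -0.73 to 0.20; limma, adjusted p = 0.580).

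Krt7, another type II keratin of simple epithelia, was 8.29, 8.49, 8.56, 8.78 and 8.03 in FF and 8.71, 8.66, 8.16, 8.64 and 8.62 in VV. As for Krt8, FF replicate 4 was highest and FF replicate 5 lowest, and VV replicate 3 stood below the other VV mice. Its difference was -0.13 ± 0.14 (SE; limma, adjusted p = 0.701).

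Krt19, the smallest keratin, which lacks a tail domain, was 9.47, 9.46, 9.50, 9.84 and 8.98 in FF and 9.30, 9.47, 9.01, 9.18 and 9.70 in VV. Its lowest mice were again FF replicate 5 and VV replicate 3, and its difference was 0.11 ± 0.16 (SE; limma, adjusted p = 0.775), with the sign opposite to the other luminal keratins.

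Krt18, the type I partner of Krt8, was 8.25, 8.39, 8.47, 8.43 and 8.04 in FF and 8.86, 8.42, 8.40, 8.47 and 8.44 in VV. FF replicate 5 was lowest here too, but VV replicate 1 was the highest mouse. The difference of -0.20 ± 0.10 (SE; limma, unadjusted p = 0.0768, adjusted p = 0.370) was -0.12 without VV replicate 1.

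**Figure D2:**
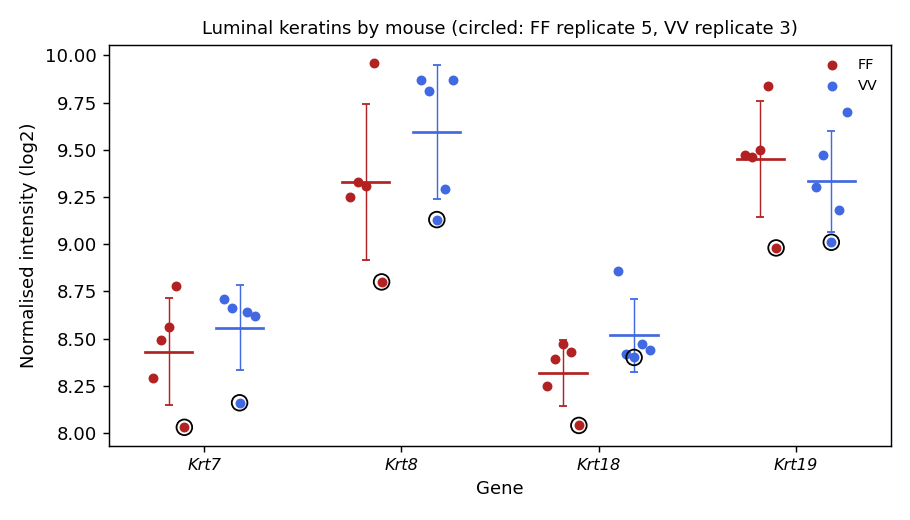
Log2 intensity of the luminal keratins in each mouse (red FF, blue VV; 5 mice a group), with bars for the group mean and whiskers for 1 SD; heights of different genes are not comparable. The circled mice, FF replicate 5 and VV replicate 3, are the 2 lowest of the 10 for Krt7, Krt8 and Krt19.

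FF replicate 5 was the lowest mouse for 4 of 4 luminal keratins, and FF replicate 5 and VV replicate 3 were the 2 lowest for 3 of 4. Over the 10 mice Pearson's r was 0.87 for Krt7 with Krt8, 0.75 for Krt8 with Krt19, 0.72 for Krt7 with Krt18, 0.70 for Krt7 with Krt19, 0.67 for Krt8 with Krt18 and 0.23 for Krt18 with Krt19; these are descriptions over shared arrays. Among the other 26 genes, FF replicate 5 was the lowest mouse for 1 (3.85%) and the highest for 6 (23.1%). Over all genes these shares were 7.2% and 11.4%. The 26 had a median percentile of mean intensity of 24.8, where the luminal keratins lay between 64.3 and 80.8. Whether dim signal kept the 26 from following the keratins was not tested.

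Markers of mesothelium, the simple epithelium that covers serous surfaces, moved with the luminal keratins. A list of 14 such markers was written after these values had been seen, so it is given as counts. Of the 14, 13 were lowest in FF replicate 5, and for 11 the 2 lowest mice were FF replicate 5 and VV replicate 3. The mean of the list, after centring each gene over the mice, was -0.68 in FF replicate 5, -0.37 in VV replicate 3 and -0.11 to 0.30 in the other mice. Upk3b, a uroplakin of mesothelial cells, was 11.31, 11.33, 11.36, 11.59 and 10.56 in FF and 11.29, 11.61, 10.90, 11.42 and 11.64 in VV. Msln, which encodes mesothelin, was 8.36 in FF replicate 5 and 8.79 in VV replicate 3, and at least 9.06 in each other mouse. Wt1, a transcription factor of mesothelium, was 8.25 and 8.74 in those mice and at least 8.87 elsewhere. None of the 14 passed the test between genotypes (0 of 14; lowest adjusted p 0.546, limma; 0 of 14 at an unadjusted p below 0.05), and all 14 had a negative difference, with a median of -0.14. FF replicate 5 set that direction: without it 8 of 14 were positive, the median was 0.02 and Upk3b differed by 0.03.

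Krt7, Krt8 and Krt19 tracked Upk3b over the 10 mice, and Krt18 less closely. Upk3b was chosen as the reference after its values were seen, so the relation is given with no test. Krt7 had a Pearson's r of 0.88 (Spearman's rho 0.64), Krt8 of 0.82 (rho 0.64), Krt19 of 0.84 (rho 0.73) and Krt18 of 0.48 (rho 0.41). Without FF replicate 5 and VV replicate 3, the mice farthest from the median of Upk3b, r was 0.51 for Krt7, 0.64 for Krt8, 0.62 for Krt19 and -0.23 for Krt18, so the relation rests in part on those 2 mice. Within groups, on deviations from the group means, r was 0.88, 0.82 and 0.93 for Krt7, Krt8 and Krt19.

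The median r with Upk3b was 0.83 over the luminal keratins, 0.93 over the other mesothelial markers, -0.17 over the other 26 genes of the gland and -0.02 over all genes. What part mesothelial RNA has in the keratin levels was not tested. Leaving out both mice gave differences of -0.13 for Krt7, -0.25 for Krt8, -0.16 for Krt18 and 0.15 for Krt19, none past the threshold. With VV replicate 3 alone left out they were -0.23, -0.38, -0.23 and 0.03, and with FF replicate 5 alone left out -0.03, -0.14, -0.14 and 0.23, so FF replicate 5 moved Krt7, Krt8 and Krt19, and VV replicate 3 moved Krt7 and Krt19, by more than 1.5 times. FF replicate 4, the highest mouse for these 3, moved them as far: without it Krt7 differed by -0.22, Krt8 by -0.43 (limma, unadjusted p = 0.0417, adjusted p = 0.325) and Krt19 by 0.02. Krt19 differed by 0.21 without VV replicate 5.

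**Figure D3:**
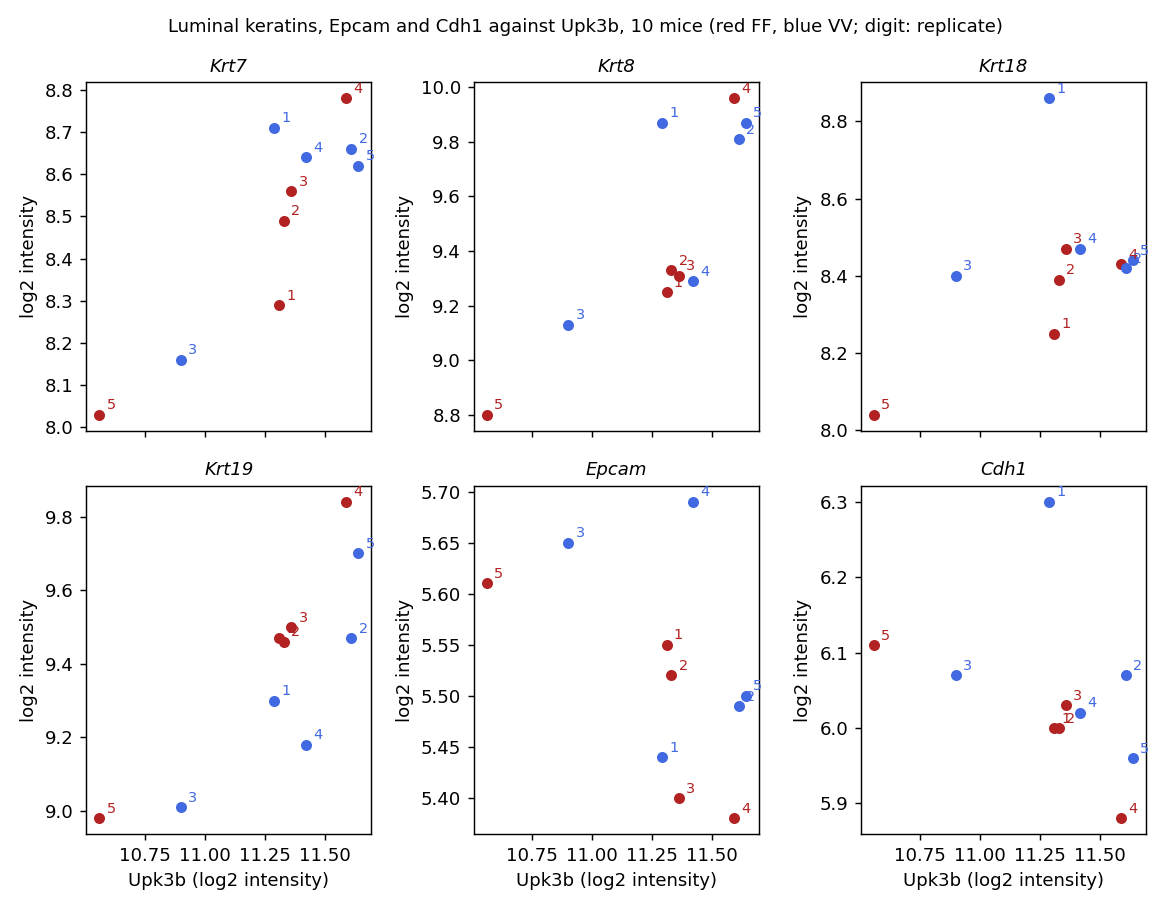
Log2 intensity of the luminal keratins, Epcam and Cdh1 against that of Upk3b, each point 1 mouse (red FF, blue VV; the digit is the replicate). The points at the left are FF replicate 5 at 10.56 and VV replicate 3 at 10.90; Krt7, Krt8 and Krt19 are low in both, and Epcam, at 5.61 and 5.65, is not.

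Epcam, the surface marker of most epithelia, did not move with the luminal keratins. It was 5.55, 5.52, 5.40, 5.38 and 5.61 in FF and 5.44, 5.49, 5.65, 5.69 and 5.50 in VV, a difference of -0.06 ± 0.07 (SE; limma, adjusted p = 0.698). FF replicate 4, the highest mouse for Krt7, Krt8 and Krt19, was the lowest for Epcam. The r of the luminal keratins with Epcam was between -0.76 and -0.41, and 0 of 29 genes passed the permutation test of r with Epcam adjusted over the 29, with 4 past an unadjusted p of 0.05. The 2 strongest in each direction were Krt19 (r = -0.76, rho = -0.73, permutation p = 0.0114, adjusted p = 0.23) and Krt8 (r = -0.67, rho = -0.78, permutation p = 0.0367, adjusted p = 0.266), and Trp63 (r = 0.73, rho = 0.82, permutation p = 0.0158, adjusted p = 0.23) and Krt15 (r = 0.67, rho = 0.61, permutation p = 0.0357, adjusted p = 0.266). Without VV replicates 3 and 4, the mice farthest from the median of Epcam, r was -0.67 for Krt19, -0.69 for Krt8, 0.69 for Trp63 and 0.72 for Krt15, and within groups it was -0.75, -0.88, 0.72 and 0.74; 0 of 29 passed either way after adjustment. Epcam lay at the 17.7 percentile of mean intensity over all genes, as a description only, since probe sets differ in brightness for equal RNA.

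The other adhesion and junction genes also varied little. Cdh1, which encodes E-cadherin, was 6.00, 6.00, 6.03, 5.88 and 6.11 in FF and 6.30, 6.07, 6.07, 6.02 and 5.96 in VV. VV replicate 1 was the highest mouse and the genotypes overlapped; the difference was -0.08 ± 0.07 (SE; limma, adjusted p = 0.609) and -0.03 without that mouse. Cldn3, Cldn4 and Cldn7, claudins of epithelial tight junctions, differed by -0.03, -0.11 and -0.09, with SEs of 0.06 to 0.08 and adjusted p of at least 0.447. All 5 genes of this role had negative differences, none past the threshold, with a median of -0.08. Without FF replicate 3, the lowest mouse for 3 of them, 4 were negative and 1 positive, with a median of -0.05. Their SDs over the 10 mice were 0.09 to 0.13.

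The keratins of the basal layer and Trp63, the p63 transcription factor that maintains basal cells, showed no difference between genotypes past the threshold. Krt5 was 6.22, 6.20, 6.23, 6.24 and 6.32 in FF and 6.20, 6.31, 6.21, 6.33 and 6.30 in VV, an SD at the 4.41 percentile of all genes. Its partner Krt14 was between 6.52 and 6.74 in the 10 mice, and Krt15, a keratin of basal progenitors in skin, between 6.13 and 6.35. Krt17 and Trp63 were highest in FF replicate 1, at 6.00 and 7.06. Differences over these 5 genes lay between -0.04 and 0.04, and the lowest adjusted p was 0.788 (limma). Their mean intensities lay between the 20 and 38.8 percentiles of all genes, so a small spread may reflect dim signal, which was not tested.

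Basal cells of skin also make Krt5 and Krt14. Of 17 skin and hair follicle genes, 14 were measured, 0 at an unadjusted p below 0.05, with a median difference of -0.02; the smallest p belonged to Krt1, a keratin of the upper epidermis (-0.08 ± 0.05, SE; limma, adjusted p = 0.432), and Krtdap (0.14 ± 0.09, SE; limma, adjusted p = 0.504). Of 11 myoepithelial genes, the contractile and adhesion genes of basal cells, 10 were measured and 1 lay lower in FF at an unadjusted p below 0.05, with a median of -0.23. That gene was Itga6, the laminin receptor subunit (-0.15 ± 0.05, SE; limma, adjusted p = 0.176), and the next was Acta2, smooth muscle actin (-0.32 ± 0.15, SE; limma, adjusted p = 0.326). Of the 10, 8 were lower and 2 higher in FF. Over all genes 6.18% lay lower at an unadjusted p below 0.05. Without FF replicate 3, or without VV replicate 1, 5 of 10 had an unadjusted p (limma) below 0.05, with medians of -0.27 and -0.29. Over all genes that share was 13.6 to 17.7% when each mouse was left out. Without both FF replicate 5 and VV replicate 3 the count was 0 of 10. Vessel smooth muscle also expresses Acta2 and other genes of that list, and its part was not tested.

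Among the regulators of epithelial identity, Trps1 stood apart. Trps1, a GATA-type repressor active in luminal cells and also in mesenchyme, was 9.38, 9.74, 9.60, 9.51 and 9.62 in FF and 9.72, 9.71, 9.64, 9.88 and 9.94 in VV. FF mice lay lower on average, and only FF replicate 2 lay inside the VV range, above 3 of the VV mice. The difference was -0.21 ± 0.08 (SE; 95% interval -0.38 to -0.04; limma, unadjusted p = 0.0217, adjusted p = 0.209). A second probe set of Trps1 was 8.32, 9.01, 8.95, 8.68 and 8.65 in FF and 8.82, 9.05, 8.92, 9.10 and 9.30 in VV, a difference of -0.32 in the same direction. Over 21 settings the unadjusted p of Trps1 ran from 0.00892 to 0.0568 and was below 0.05 in 16. The gene lies on chromosome 15, as do Fob3a, Deptor, Krt5, Krt7, Krt8, Krt18, Grhl2 and Glycam1. Their distances from the locus were not compared, and the effect of linkage to the locus was not tested.

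Of the other regulators none had an unadjusted p below 0.05. Elf5, the luminal progenitor factor that drives alveolar development, was 6.02, 5.82, 5.65, 5.98 and 5.91 in FF and 5.79, 5.91, 6.02, 5.97 and 6.02 in VV (-0.06 ± 0.08, SE; limma, adjusted p = 0.727). Elf3 and Ehf, related ETS factors of epithelia, differed by 0.01 and -0.02, Grhl2, which sustains epithelial junction genes, by -0.02, and Esrp1, an epithelial splicing regulator, by 0.04, each with an adjusted p of at least 0.798. Elf3 ran from 5.44 to 6.01, an SD of 0.16 that equals that of Trps1, and Grhl2 had an SD of 0.05. Of the protease inhibitors, Spint1 differed by -0.01 and Spint2 by -0.08; Spint2 ran from 8.38 to 9.05, both in FF mice. Rab25, a trafficking GTPase of epithelia, differed by 0.03 (limma, adjusted p = 0.845).

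FF replicate 3 was the lowest of the 10 mice for 11 of the 26 genes other than luminal keratins (42.3%), and FF replicate 1 the highest for 7 (26.9%). Over all genes these shares were 16.1% and 14.1%, and over genes below the 25th percentile of intensity 19.8% and 20.1%. Markers of kidney, intestine and pancreas, tissues outside this depot, were lowest in FF replicate 3 for 10 of 19; Lrp2 is in that list and in the mesothelial list. Their median r with Epcam was 0.29, beside 0.38 for the 25 genes of the gland other than luminal keratins and Epcam itself, and -0.01 for all genes. The part of shared array background in how the dim genes of the gland move together was not tested.

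The caseins and Wap varied little between mice, with SDs of 0.04 to 0.09, while Glycam1 varied widely. The promoter windows of Csn1s1, which encodes an alpha casein and had the smallest unadjusted p of the milk genes, and Csn2, which encodes beta casein, are shown because the STAT letters in them are the kind of site through which prolactin signalling acts on casein genes; the sources, build and capitals are as above.
Csn1s1, chr5:87665958-87666257, plus strand: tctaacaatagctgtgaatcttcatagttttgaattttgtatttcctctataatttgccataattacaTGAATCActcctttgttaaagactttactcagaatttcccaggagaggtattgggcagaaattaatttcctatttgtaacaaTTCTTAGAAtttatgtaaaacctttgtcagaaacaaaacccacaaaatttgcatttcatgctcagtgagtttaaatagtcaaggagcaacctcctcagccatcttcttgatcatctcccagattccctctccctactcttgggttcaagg
Csn2, chr5:87699376-87699675, minus strand: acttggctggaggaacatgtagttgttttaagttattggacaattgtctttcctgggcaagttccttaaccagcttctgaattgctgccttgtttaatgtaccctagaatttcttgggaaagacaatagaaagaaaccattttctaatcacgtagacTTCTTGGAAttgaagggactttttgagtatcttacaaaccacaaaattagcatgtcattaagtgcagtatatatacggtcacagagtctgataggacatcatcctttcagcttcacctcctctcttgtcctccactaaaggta
Both hold the STAT letters TTCNNNGAA, at base -100 in Csn1s1 and base -93 in Csn2, counted from the start, and Csn1s1 also holds the AP-1 letters. Among the caseins and Wap, 4 have a window in the table, and 3 of these hold the STAT letters, beside 8.3% of all promoters.

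Csn2 was 5.60, 5.67, 5.67, 5.66 and 5.72 in FF and 5.54, 5.54, 5.69, 5.66 and 5.66 in VV. Its difference was 0.04 ± 0.05 (SE; 95% interval -0.06 to 0.15; limma, adjusted p = 0.686). Csn1s1 was 4.93, 4.96, 5.05, 4.95 and 5.11 in FF and 4.85, 4.85, 4.98, 4.89 and 4.86 in VV. FF mice lay higher on average, with VV replicate 3 inside the FF range, by 0.11 ± 0.05 (SE; 95% interval 0.01 to 0.22; limma, unadjusted p = 0.0391, adjusted p = 0.271). The unadjusted p of Csn1s1 was below 0.05 in 9 of 19 settings. Csn1s2a, another alpha casein, and Csn3, kappa casein, differed by 0.01 and 0.00, with SDs over the 10 mice of 0.04 and 0.05. Wap, the whey acidic protein, was between 6.89 and 7.15 and differed by -0.04 ± 0.06 (SE; limma, adjusted p = 0.796). The caseins lay between the 3.72 and 19.6 percentiles of mean intensity, and no detection calls were used here, so whether their RNA was present is not stated.

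Muc1, a mucin of the luminal surface and of milk fat globules, was 6.37, 6.36, 6.34, 6.36 and 6.27 in FF and 6.23, 6.18, 6.27, 6.30 and 6.27 in VV. Only FF replicate 5 lay inside the VV range, and the difference was 0.09 ± 0.04 (SE; limma, unadjusted p = 0.0502, adjusted p = 0.305). Without that mouse it was 0.11 (limma, adjusted p = 0.248).

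Glycam1, a mucin-like glycoprotein of milk and of lymph node vessels, had the widest spread of the 30 genes. It was 5.58, 5.34, 5.15, 5.34 and 5.34 in FF and 5.29, 5.56, 7.13, 5.35 and 5.80 in VV. A single mouse, VV replicate 3, set the difference of -0.48 ± 0.30 (SE; 95% interval -1.13 to 0.17; limma, adjusted p = 0.473), which was -0.15 without it. VV replicate 3 was the highest mouse for 2 of 7 milk genes, Glycam1 and Csn1s2a, the latter at 4.54 within a range of 4.44 to 4.54. Csn2 was 5.69 there, against up to 5.72 elsewhere. Of 8 measured lymphocyte genes, 7 were lower in FF at an unadjusted p below 0.05, beside 6.18% of all genes, and 0 passed the adjusted threshold, with a median difference of -0.67. The smallest p belonged to Cd4, the T helper coreceptor (-0.30 ± 0.06, SE; limma, unadjusted p = 0.000383, adjusted p = 0.05, at the threshold and not below it), and Ms4a1, the B cell antigen CD20 (-1.41 ± 0.36, SE; limma, adjusted p = 0.0875). For Cd4, as for Cxcl13 below, all FF mice lay below all VV mice, where 4.70% of all genes had groups that did not overlap. Of 4 measured genes of lymph node stroma, which include Glycam1, 2 lay lower in FF at an unadjusted p below 0.05: Cxcl13, the B cell attracting chemokine (-0.84 ± 0.23, SE; limma, adjusted p = 0.0964), and Cr2, a complement receptor of follicles (-0.36 ± 0.10, SE; limma, adjusted p = 0.112). Madcam1, an adhesion molecule of such vessels, had a mean difference of 0.00. Leaving out VV replicate 1 brought Cd4 (-0.35; limma, adjusted p = 0.03) and Cr2 (-0.44; limma, adjusted p = 0.0449) past the threshold. Leaving out FF replicate 4 did so for Ms4a1 (-1.74; limma, adjusted p = 0.033). Omission of any other single mouse gave no call and raised the lowest adjusted p (limma) of both lists. For the lymphocyte genes that value was then 0.0539 (FF replicate 3 omitted) to 0.122 (VV replicate 2 omitted), against 0.05 with all mice. For the stroma genes the corresponding values were 0.107 (FF replicate 3 omitted) to 0.181 (VV replicate 4 omitted), against 0.0964. The lymph node stroma score was highest in VV replicate 3, at 0.46, a score that holds Glycam1 itself. The lymphocyte score there was 0.41, below the 0.49 and 0.57 of VV replicates 2 and 5. Lymph node RNA was not tested as a part of the Glycam1 levels.

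**Figure D4:**
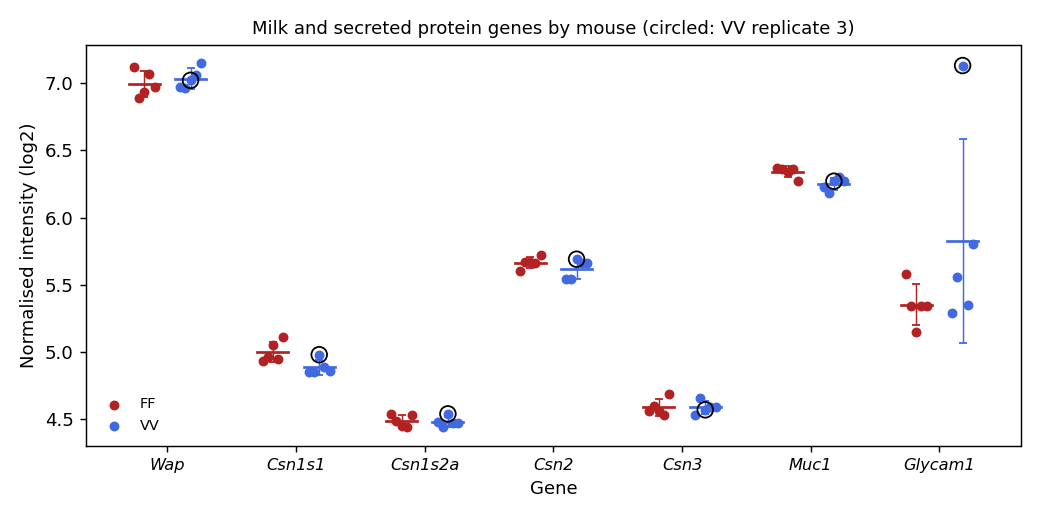
Log2 intensity of the milk and secreted protein genes in each mouse (red FF, blue VV; 5 mice a group), with bars for the group mean and whiskers for 1 SD; heights of different genes are not comparable. VV replicate 3, circled, is at 7.13 for Glycam1; among the other genes it is the highest mouse for Csn1s2a, at 4.54, by a narrow margin.

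Liver markers were high in VV replicate 1: 13 of 14 measured liver markers were highest there, the liver score was 3.33 against at most 0.46 elsewhere, and Alb, serum albumin, was 13.91. In FF replicate 1, 14 of 14 skeletal muscle markers were highest. Of all genes 6.13% were highest in VV replicate 1. Of the 30 genes of the gland 2 were, Krt18 and Cdh1 (6.67%), which is near that share. Of 29 other epithelial genes 10 were highest there (34.5%) and 3 others were lowest there. The 10 were Dsp, Dsg2, Ocln, Cldn1, Marveld2, Ovol2, Tmem30b, Perp, Dsc2 and Esrp2, and the last 3 lay over 0.5 above any other mouse: Perp, a desmosomal membrane protein, at 7.61 against at most 6.91 elsewhere, Dsc2, a desmosomal cadherin, at 5.86 against at most 5.24, and Esrp2, a splicing regulator, at 7.20 against at most 6.47. Erbb3, a receptor of neuregulins, was 7.84 there against at most 7.16, Foxa1, a pioneer factor of hormone-sensing luminal cells, 7.04 against at most 6.67, and Pigr, which carries IgA into milk and bile, 9.03 against at most 6.15. These genes were named after their values were seen. Without that mouse the difference between genotypes was -0.04 for Erbb3 and -0.22 for Foxa1, against -0.21 and -0.30 with it.

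With Alb, also chosen after its values were seen and given with no test, Krt18 had an r of 0.69 (rho 0.32) and Cdh1 of 0.70 (rho 0.27). Without VV replicates 1 and 2, r was 0.04 for Krt18 and -0.44 for Cdh1, so both relations rest on the mice left out. Of these, VV replicate 1 was the highest mouse for both genes. VV replicate 2, at 8.42 and 6.07, was near their medians of 8.43 and 6.02. Within groups r was 0.59 and 0.64. What share of these epithelial levels was liver RNA was not tested.

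**Figure D5:**
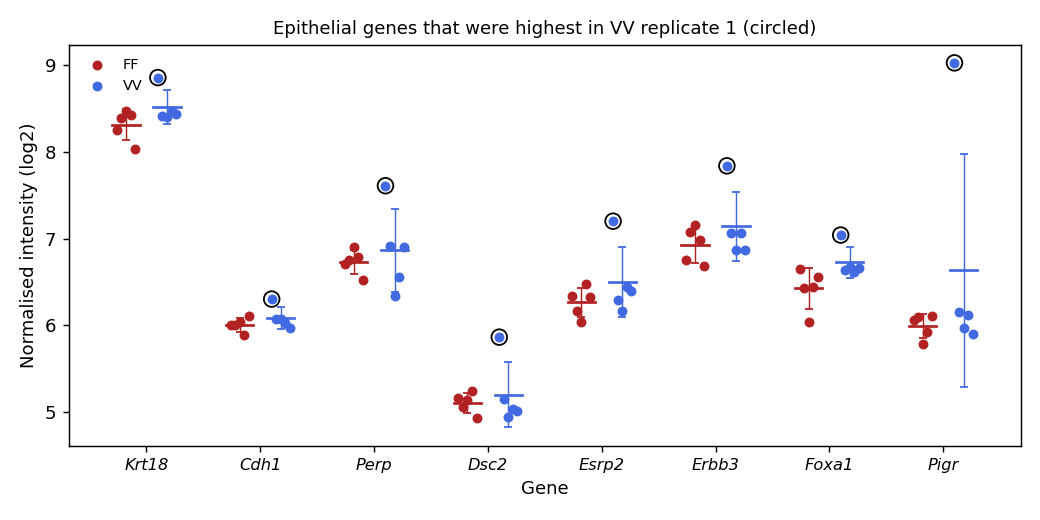
Log2 intensity of genes of the gland and of other epithelial lists that were highest in VV replicate 1, circled, with each other mouse as a point (red FF, blue VV; 5 mice a group), bars for the group mean and whiskers for 1 SD; the genes were chosen for this and heights of different genes are not comparable. Pigr is at 9.03 in that mouse and at most 6.15 in the others.

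In the wider epithelial and mammary lists, 0 genes passed the adjusted threshold. At an unadjusted p (limma) below 0.05, 10.2% of all genes lay higher and 6.18% lower in FF. Of 30 other epithelial genes, 29 were measured, 1 higher and 1 lower in FF at an unadjusted p below 0.05, with a median of -0.05. They were Grhl1, a grainyhead factor (0.20 ± 0.08, SE; limma, adjusted p = 0.269), and Lad1, an anchoring filament protein (-0.21 ± 0.08, SE; limma, adjusted p = 0.223). Of 15 hormone-sensing and luminal lineage genes, 1 lay higher and 1 lower, with a median of -0.02: Kit, a receptor of luminal progenitors and mast cells (0.26 ± 0.11, SE; limma, adjusted p = 0.240), and Foxa1 (-0.30 ± 0.12, SE; limma, adjusted p = 0.234). Of 5 prolactin pathway genes, which fat cells also use, Stat5a lay higher (0.18 ± 0.07, SE; limma, adjusted p = 0.206) and Jak2 lower (-0.18 ± 0.07, SE; limma, adjusted p = 0.226), with a median of 0.03. Of 17 other milk and secretory genes, 15 were measured and 0 passed an unadjusted p of 0.05, the smallest p being those of Folr1, a folate receptor (-0.13 ± 0.07, SE; limma, adjusted p = 0.406), and Pigr (-0.64 ± 0.52, SE; limma, adjusted p = 0.589), which differed by -0.04 without VV replicate 1.

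As a description of signal, in which probe sets are not comparable as levels, the 9 measured adipocyte markers lay between the 99.2 and 100 percentiles of mean intensity, where the 30 genes of the gland ran from 3.72 to 83.6 with a median of 27.8. Of the adipocyte markers 3 lay higher and 1 lower in FF at an unadjusted p below 0.05, with the smallest p for Lipe, hormone-sensitive lipase (0.12 ± 0.04, SE; limma, adjusted p = 0.152), and Pnpla2, adipose triglyceride lipase (0.13 ± 0.05, SE; limma, adjusted p = 0.234). Over all genes 10.2% lay higher and 6.18% lower at that level. Without FF replicate 3, or without VV replicate 2, 1 adipocyte marker had an unadjusted p (limma) below 0.05. In the liver, skeletal muscle, kidney, and intestine and pancreas lists 0 genes passed an unadjusted p of 0.05. Their smallest p belonged to Ahsg (-1.72) and Alb (-0.98) for liver, Myh2 (0.66) and Myh1 (0.57) for muscle, Slc12a3 (-0.10) and Slc34a1 (-0.09) for kidney, and Ctrb1 (-0.15) and Lgals4 (0.15) for intestine and pancreas, with adjusted p of at least 0.391 (limma). Without VV replicate 1 the differences of Ahsg and Alb were -0.70 and -0.45, and without FF replicate 1 those of Myh2 and Myh1 were 0.28 and 0.23. Lgals4 differed by 0.07 without VV replicate 5.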

How the data were processed

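White fat RNA of 10 mice, 5 FF and 5 VV, was labelled with biotin and hybridised to one-colour arrays of the Affymetrix type, per the labels' protocols. The authors deposited log2 intensities, 1 value per probe set, made with RMA per the submitters' processing notes. For its version and the genome build, the sources used here give nothing. Values ran from 3.56 to 14.22, array medians from 7.15 to 7.21 and correlations between arrays from 0.979 to 0.996.

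Of 35557 probe sets, 9868 without values, 232 naming several genes and 4680 absent from the probe table were left out. The remaining 20777 gave 19659 genes, 566 with several probe sets. Symbols, chromosomes and promoters came from RefSeq GRCm38.p6, matched for 20699 probe sets; gene names otherwise follow the platform annotation, which can be old. FF and VV were compared in R 4.3.3 with limma 3.58.1 (lmFit, eBayes, two-sided, no covariates), adjusted by Benjamini-Hochberg over all genes at 0.05. The procedure was tested on simulated data with noise drawn independently for each gene. Such data hold no shifts shared by many genes of 1 mouse, so the effect of those was not tested. Correlations over mice used two-sided permutation tests with 100000 resamples, or exact ones (40320 and 14400 arrangements) without 2 mice and within groups. They were run in NumPy 2.4.6, with the ranks for rho from SciPy 1.17.1. A list score is the mean of its genes after centring each over the 10 mice.

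The genes and lists were chosen with earlier results of these data known. Named genes were every measured gene of the gland, the 2 with the smallest p of each other list, and Deptor; the mesothelial list, the Upk3b and Alb relations (given with no test) and the genes highest in VV replicate 1 were chosen after their values were seen. Alternatives left out each mouse, both mice numbered 1, or dim genes, and changed the normalisation, the probe set rule, the variance model, the array weights and the replicate block; leaving out FF replicate 5 with VV replicate 3, and each mouse for the marker genes, was added after seeing the data.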

Additional observations from a re-analysis of the deposited data

Results flagged for a closer look

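Of 116 groups of 5 mice over 58 genes, 8 held a mouse whose gap to the nearest other mouse was over 0.71 of its group's range. Chance alone gives about 1 in 20 such groups. The 58 genes include Upk3b, chosen after its values were seen, and not every gene named above was searched. The count of 8 is therefore a description and is not set against that share. Among the 60 groups of the measured gland genes there were 5. Krt18 was 8.86 in VV replicate 1, with the next VV mouse at 8.47. Krt7 was 8.16 in VV replicate 3, below 8.62 in the next. Glycam1 was 7.13 in VV replicate 3, above 5.80. Muc1 was 6.27 in FF replicate 5, below 6.34, and Ehf was 5.67 in FF replicate 1, above 5.51. The others were Upk3b at 10.56 in FF replicate 5, below 11.31, Foxa1 at 7.04 in VV replicate 1, above 6.67, and Pigr at 9.03 in VV replicate 1, above 6.15.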

How the results depend on the processing

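In all 20 alternatives 0 of the measured gland genes passed the adjusted threshold, and between 0 and 4 had an unadjusted p below 0.05, beside 13.6 to 23.8% of all genes. Of 563 recomputed differences, 41 changed sign, none of them over 0.08 in size as reported, and 1 moved by more than 1 SD, that of Muc1, to 0.13 after quantile normalisation. The median difference stayed between -0.047 and -0.002 when each mouse was left out; it was 0.006 after quantile normalisation, -0.006 with arrays centred and -0.167 among genes above the median of intensity, where 6 of the gland genes remain. Gland genes whose groups did not overlap numbered 0 to 1 when each mouse was left out (Trps1 without FF replicate 2, Muc1 without FF replicate 5, Csn1s1 without VV replicate 3; 5.71 to 8.44% of all genes), 1 without both mice numbered 1 (Glycam1; 8.95%) and 2 without FF replicate 5 and VV replicate 3 (Csn1s1 and Muc1; 8.88%). The genes of the whole array past the threshold, 148 as reported, were 383 with array weights, 338 with arrays centred on their medians, 230 above the 25th percentile and 355 above the median of intensity, 95 after quantile normalisation, 28 without both mice numbered 1, 8 without FF replicate 5 and VV replicate 3, and 7 to 379 when each mouse was left out; the cause was not tested. With the replicate number as a block they were 5, and 0 of the gland genes; the correlations of same-numbered mice, 0.1, 0.01, -0.08, -0.26 and -0.15, do not pair the samples. Dim signal, without detection calls, limits what can be said of most gland genes other than luminal keratins, the caseins and Epcam among them. The luminal keratins were brighter, but their r with Epcam was -0.76 to -0.41, and which cells their RNA came from was not tested. The name gland genes is that of the list, and whether gland RNA was present was not tested. The 26 genes other than luminal keratins had a median percentile of mean intensity of 24.8. Markers of kidney had 33.2 and those of intestine and pancreas 35.6, though probe sets are not comparable as levels. Trps1 and Spint2 lay higher, at 83.6 and 70.1.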
